A study of Mus musculus with 8 samples.

Results

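The genes described here code for antibody chains and for the protein that joins antibody units: Ighm, Ighg3, Jchain, Igkv9-120, Igkv8-30 and Igkv6-14. They are 6 of the 22180 named genes measured on 8 Affymetrix arrays of mouse medial prefrontal cortex (mPFC) RNA. They were chosen by their measured log2 differences between the 2 injection targets, which are among the largest on the arrays, so those differences are described without a test. Each gene is represented by its brightest probe set among those annotated to that gene alone. Levels are the deposited log2 values, and a level is called low where it lay under the array's median over all named genes, which was 5.86 to 5.98 on the 8 arrays.

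All mice carried a Cre-dependent tag, green fluorescent protein (GFP) on ribosomes, and all received CAV2-Cre, a canine adenovirus that enters axon terminals and delivers Cre recombinase to the cell body. The virus was placed in NAC or in VTA, as the labels write the 2 targets, and the mPFC was then dissected. The 4 groups of 2 arrays each were NAC pull-down (ribosome-bound RNA caught with GFP-trap), VTA pull-down, NAC input (RNA without purification) and VTA input. The labels give no strain, age or sex and name no uninjected group. They also leave unsaid whether each array stands for its own mouse or for a pool. Target, mice and handling therefore cannot be told apart in any NAC to VTA difference below, and p-values cover only array-to-array spread, which may be technical. The cells that carry the tag are those whose axons took up the virus, and no label describes the ribosomal gene that bears the GFP.

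An antibody is built from heavy chains and light chains. B cells assemble each chain gene from variable (V), joining (J) and constant (C) segments, and plasma cells, the secreting stage of the B lineage, make the resulting messenger RNAs in very large amounts. Ighm codes for the constant part of the IgM heavy chain, Ighg3 for that of the IgG3 heavy chain, and Jchain for the joining chain that links IgM or IgA units into polymers. The 3 Igkv genes are V segments of the kappa light chain. Healthy brain tissue holds few cells of this lineage, most of them at its borders.

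Jchain was the only one of the 6 genes with a promoter in the RefSeq table of GRCm38.p6 used here. Its promoter is shown for that reason alone, as background to the measured levels. The window lies at chr5:88527848-88528147 on the minus strand, from 250 bases before to 50 bases after the start of the gene. Capitals mark GGAA or its reverse complement TTCC, the core letters bound by the ETS family of factors, to which the B-lineage and myeloid factor PU.1 belongs.
Jchain promoter: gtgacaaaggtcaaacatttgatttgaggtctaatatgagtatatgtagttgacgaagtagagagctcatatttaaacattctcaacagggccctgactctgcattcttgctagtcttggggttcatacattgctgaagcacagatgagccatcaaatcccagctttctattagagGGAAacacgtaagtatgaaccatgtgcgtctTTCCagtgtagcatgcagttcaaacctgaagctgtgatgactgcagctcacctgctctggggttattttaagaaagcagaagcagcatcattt
The window held 2 such matches, and 96.0% of the 32851 promoters of the same length (300 bases) held at least 1. The octamer ATGCAAAT, the hallmark motif of immunoglobulin V promoters, was not found on either strand, and 1.74% of promoters held it. The letters CACGTG and TATAAA were not found either, against 7.15% and 13.6% of promoters.

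The tissue and the purification were checked on other genes. The 9 measured cortical neuron genes, among them Snap25 and Slc17a7, averaged 11.17 to 11.34 on the 8 arrays, and none of the 9 passed limma between the targets in either RNA fraction. Rpl10a, a large-subunit ribosomal protein gene, was 1.49 higher in the pull-downs than in the inputs (SE 0.10, limma with Benjamini-Hochberg adjustment, adjusted p = 4.1e-05). The difference was 1.15 with NAC and 1.83 with VTA, and in the inputs Rpl10a was itself lower with VTA, at -0.82 (limma adjusted p = 0.013). A gene is said to rise, fall or be called below where this adjusted p, taken over all 11712 genes bright enough to be tested, was under 0.05. Pull-down against input, averaged over both targets, 1 of the 9 neuron genes rose and 2 fell, with a median of -0.01. Over all tested genes 9.60% rose and 32.0% fell. Among Rpl10a and the neuron genes, the check of the purification therefore rests on Rpl10a alone. In the same comparison 5 of 6 tested microglia and border macrophage genes and 6 of 8 meningeal and choroid plexus genes fell. So did 8 of 10 genes of antibody receptors and complement, 3 of 6 MHC class II genes and 2 of 9 T and NK cell genes. No gene of these lists rose. Whether the purification lowered them was not tested.

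The antibody transcripts were higher in tissue from NAC-injected mice than in tissue from VTA-injected mice, in unpurified and in ribosome-bound RNA. With VTA, 5 of the 6 were under the array median on every array, and Ighm stayed above it. The arrays of the 2 targets did not overlap for 6 of 6 genes in the inputs, where 12.4% of the 11712 tested genes had both VTA arrays below both NAC arrays. They did not overlap for 6 of 6 in the pull-downs either, where 28.8% of tested genes did the same. Because these differences chose the genes, nothing is read from those counts. In bulk RNA, fewer cells of a type and less RNA per cell cannot be told apart.

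Among the heavy chain genes, Ighm (probe set 17284349) read 9.63 and 9.75 in the NAC inputs and 8.96 and 9.02 in the VTA inputs. It read 9.47 and 9.37 in the NAC pull-downs and 8.78 on both VTA pull-downs. All 8 values lay far above the array medians, and the gap between targets was modest, at 0.70 in the inputs (1.62-fold) and 0.63 in the pull-downs (1.55-fold). Ighg3 (probe set 17284614) read 6.02 and 6.14 in the NAC inputs and 3.21 and 3.45 in the VTA inputs. Its pull-downs were closer together, at 4.55 and 5.08 with NAC and 4.53 and 3.96 with VTA, so that the lower NAC and the higher VTA array differed by only 0.02. Ighg3 was above the array median only in the NAC inputs, and its 6.76-fold difference between inputs is not exact because the VTA level is low.

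Jchain (probe set 17449447) read 7.18 and 6.68 in the NAC inputs against 4.19 and 3.98 in the VTA inputs. In the pull-downs it read 6.57 and 6.33 with NAC against 4.24 and 4.21 with VTA. Every NAC array lay above the array median and every VTA array below it, a difference of 2.85 in the inputs and 2.23 in the pull-downs, sizes that are not exact because the VTA levels are low.

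The light chain segments had the widest gaps between inputs. Igkv9-120 (probe set 17459324) read 8.25 and 8.15 in the NAC inputs and 3.32 and 3.35 in the VTA inputs. It read 7.67 and 6.90 in the NAC pull-downs and 3.06 and 2.79 in the VTA pull-downs. Its difference was 4.87 in the inputs (29.2-fold) and 4.36 in the pull-downs (20.5-fold), rank 1 of 11712 tested genes in each. Igkv8-30 (probe set 17467519) read 7.22 and 7.03 against 2.76 and 3.31 in the inputs, NAC before VTA. In the pull-downs it read 6.23 and 5.36 against 3.36 and 4.07. Its difference was thus 4.09 in the inputs and 2.08 in the pull-downs. Igkv6-14 (probe set 17467548) read 6.06 and 5.96 against 2.31 and 2.19 in the inputs, and 5.73 and 4.29 against 2.72 and 2.45 in the pull-downs. Its differences were 3.76 and 2.42, and its NAC pull-downs had the widest spread of the 6 genes (SD 1.02, n = 2). The VTA levels of all 3 segments were low, so these sizes are not exact, and because V segments resemble each other in sequence, a probe set may also respond to related segments, which was not tested.

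**Figure D1:**
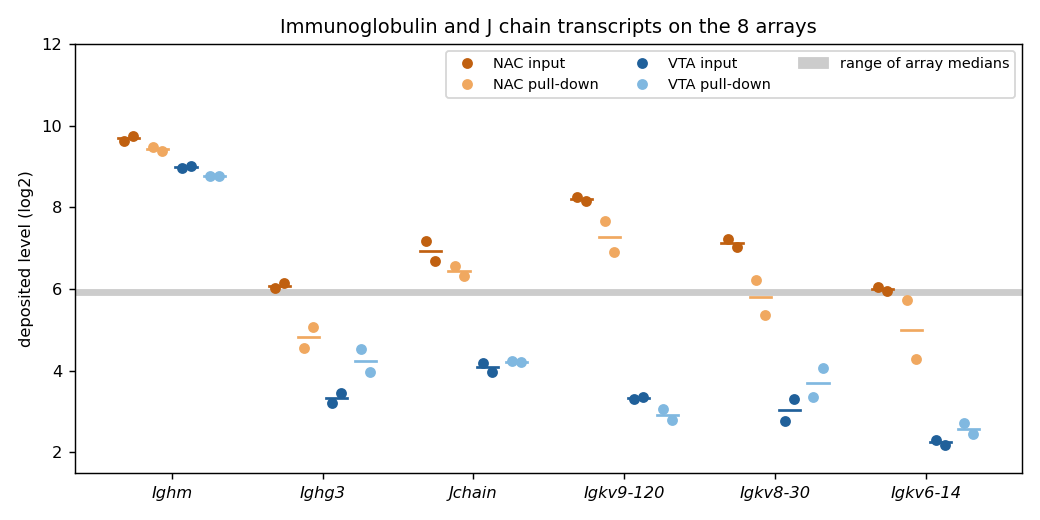
Deposited log2 level of the 6 genes on the 8 arrays, with 1 point per array, a short bar at each group's mean and the grey band spanning the 8 array medians over named genes (5.86 to 5.98). The NAC points lie above the VTA points of the same RNA fraction for every gene; Ighm stays above the band throughout, and the VTA points of the other 5 genes lie below it.

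The gap between targets was narrower in ribosome-bound RNA than in the inputs for each of the 6 genes. It was 4.36 of 4.87 for Igkv9-120, 0.63 of 0.70 for Ighm, 2.23 of 2.85 for Jchain, 2.42 of 3.76 for Igkv6-14, 2.08 of 4.09 for Igkv8-30 and 0.57 of 2.76 for Ighg3. With 1 pull-down left out, that of Igkv6-14 ran from 1.70 to 3.14, of Igkv8-30 from 1.65 to 2.52 and of Ighg3 from 0.285 to 0.854, so no order of the genes is read from these values. The NAC pull-downs were below their inputs for every gene, and for Ighg3, Igkv8-30, Igkv6-14 and Jchain the VTA pull-downs were above theirs, at levels under the array medians. In NAC tissue the pull-down was below the input by values of -0.27 for Ighm, -0.48 for Jchain, -0.92 for Igkv9-120, -1.003 for Igkv6-14, -1.27 for Ighg3 and -1.33 for Igkv8-30. In VTA tissue the same differences were -0.20, 0.14, -0.41, 0.34, 0.92 and 0.68 in that order. These values share arrays with the differences that chose the genes and carry no test.

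Pull-down against input, averaged over both targets, weighs NAC and VTA equally and so was open to a test. Igkv9-120 fell in the pull-downs by 0.66 on the log2 scale (SE 0.14, n = 4 and 4, limma with Benjamini-Hochberg adjustment, adjusted p = 0.0059). This average joins -0.92 with NAC and -0.41 with VTA. The VTA part is not exact, because Igkv9-120 was low on every VTA array. Ighm fell by 0.24 (SE 0.07, limma adjusted p = 0.018). For both genes each pull-down lay below both inputs of its own target. Igkv8-30, at -0.32 (limma adjusted p = 0.23), and Jchain, at -0.17 (limma adjusted p = 0.24), did not pass. Igkv8-30 was above the array median only in the NAC inputs and NAC pull-down 1, so at least 1 bright NAC input was a condition of its test. Igkv6-14 had -0.33 and Ighg3 -0.18; both passed the filter on dim genes through the NAC inputs alone, so bright inputs were a condition of their test and no p is given for them. A fall was called for 32.0% and a rise for 9.60% of all tested genes, with a median of -0.11 over all of them, so 2 of 6 is close to the background. All 6 passed the filter, but 5 did so through NAC arrays alone. Ighm did not pass in limma once any of 3 arrays was left out. Its adjusted p became 0.0658 when NAC pull-down 2 was dropped, 0.0657 with NAC input 2 dropped and 0.0572 with VTA input 2 dropped, and 0.0636 with no filter. Dropping NAC pull-down 1 gave Igkv8-30 -0.54 and Igkv6-14 -0.69, and dropping NAC pull-down 2 gave Igkv6-14 0.028. With NAC input 2 dropped Jchain had -0.30 (limma adjusted p = 0.0417).

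Ighm had 7 probe sets of its own, and they did not give the same gap. The chosen one is the brightest and had the second smallest difference between inputs, 0.70. The next 4 in brightness had 1.9985, 3.08, 1.44 and 3.26 in the inputs and 1.47, 2.81, 0.94 and 2.89 in the pull-downs. Of the dim ones, 1 had 1.37 and 0.39, and the other had 0.07 in the inputs and -0.26 in the pull-downs. Both VTA arrays lay below both NAC arrays on 6 of 7 in the inputs and 6 of 7 in the pull-downs. Of all tested genes 12.4% and 28.8% did the same. Because the difference between targets chose Ighm, nothing is read from these counts. With the mean over its probe sets Ighm differed by 1.70 in the inputs and 1.27 in the pull-downs. The second probe set of Ighg3 was dim in every group (means of 4.02 to 4.31), with NAC above VTA by 0.29 in the inputs and 0.21 in the pull-downs.

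**Figure D2:**
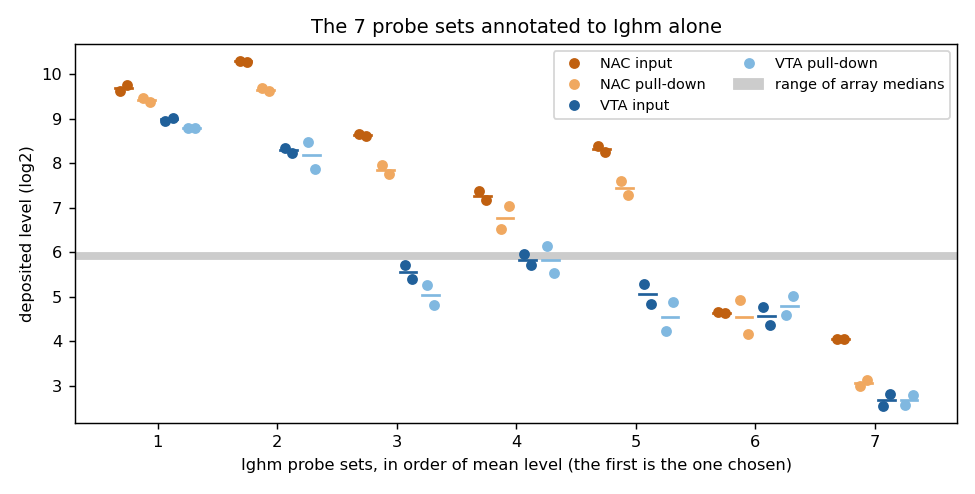
Deposited log2 level of each of the 7 probe sets annotated to Ighm alone, in order of their mean over the 8 arrays, with 1 point per array, bars at group means and the grey band at the array medians. The first probe set, the one used for Ighm, shows a small gap between targets (0.70 in the inputs), and the 3rd and 5th show gaps of 3.08 and 3.26.

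The array named 15 further immunoglobulin genes, and most of them were also lower with VTA in the inputs. They were 10 kappa V segments, the kappa joining segment Igkj1, 3 heavy chain V segments and the lambda V segment Iglv1. No other heavy or light chain constant-region gene had a probe set of its own, so other antibody classes and the kappa constant region are not analysed here. Of the 15, 5 passed the filter. In the inputs 5 of 5 were lower with VTA, where 1.38% of tested genes were called lower and 0.120% higher. In the pull-downs 4 of 5 were lower, where 2.05% of tested genes were called lower and 0.418% higher. Igkj1 and Igkv4-72 passed the filter through NAC arrays alone, so they could be tested only by being bright with NAC, and their calls are no support for the direction. The calls that do not depend on this are those of Igkv5-43 and, in the inputs, Ighv1-53. Igkv15-103 exceeded the array median on 5 arrays, of which only the second VTA pull-down came from VTA tissue. Its test therefore also depended on being bright with NAC. Over all 15 genes the median of VTA minus NAC was -1.11 in the inputs and -0.56 in the pull-downs, against 0.03 and -0.02 over all 22180 named genes. This list holds genes of the same families as the chosen ones, and whether shared sequence links the probe sets was not tested.

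Igkv5-43 read 10.93 and 10.88 in the NAC inputs and 7.72 and 7.55 in the VTA inputs, and 10.58 and 10.38 against 8.15 and 7.58 in the pull-downs. It is well above the array medians on all 8 arrays and still differed by -3.27, VTA minus NAC, in the inputs (SE 0.17, limma adjusted p = 3.6e-06) and by -2.62 in the pull-downs (limma adjusted p = 2e-05). On the brightest probe set of each gene, the gap of Igkv5-43 was wider than those of Ighm, Ighg3 and Jchain. Another Ighm probe set had 3.26 in the inputs and 2.89 in the pull-downs, NAC minus VTA. Igkv5-43 had 3 probe sets, of which only the brightest is given. Igkj1 differed by -2.84 and -2.33 and Igkv4-72 by -2.62 and -2.16, inputs before pull-downs, and both passed in each fraction. Igkv15-103 was lower by values of -1.18 and -0.62, with the second call lost on leaving out any of 6 arrays (both inputs of each target, the first NAC pull-down or the first VTA pull-down; limma adjusted p from 0.0628 to 0.208). Ighv1-53 fell in the inputs alone at the threshold, with -1.11 there and -0.40 in the pull-downs (limma adjusted p = 0.0013 and 0.17), a contrast between fractions that was not tested.

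The 10 dimmer genes were more mixed. Both VTA arrays lay below both NAC arrays for 7 of them in the inputs and 4 in the pull-downs, where 12.4% and 28.8% of tested genes did so. Those shares cover only genes that passed the filter, which these 10 did not, so nothing is read from the counts. Igkv1-133 had the widest gap, 2.49 in the inputs and 1.80 in the pull-downs, at levels under the array medians. Ighv1-47 had 0.03 and -0.19. Both genes, and Igkv8-19 in the plot of target differences, were chosen after their values were seen. With no filter on dim genes, 8 of the 15 were called lower with VTA in the inputs and 4 in the pull-downs, against 0.631% and 0.509% of 22180 genes called in either direction. In addition, 5 probe sets carried several immunoglobulin symbols each and are not named. NAC exceeded VTA on them by 1.21 to 4.196 in the inputs and by 0.89 to 4.42 in the pull-downs. The largest gap of each fraction came from the same probe set, where it was wider in the pull-downs than in the inputs. On the others the gap was narrower in the pull-downs. Averaged over targets, 2 of the 5 tested genes fell in the pull-downs, Igkv4-72 by 0.43 and Igkj1 by 0.31 (limma adjusted p = 0.0092 and 0.02). Igkj1 lost its call without any of 5 arrays, namely the second NAC pull-down, the second VTA pull-down, either NAC input or the first VTA input (adjusted p from 0.0505 to 0.0846).

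**Figure D3:**
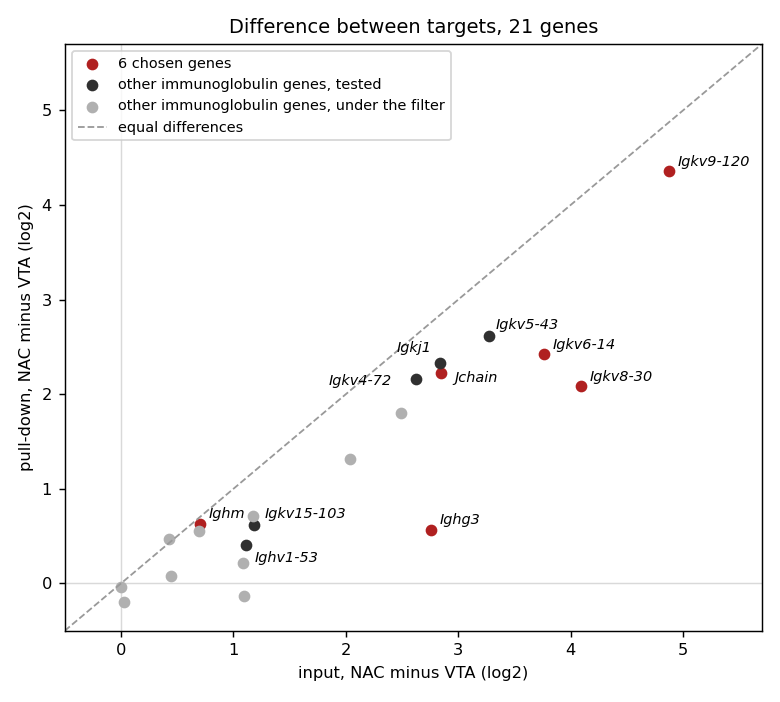
NAC minus VTA difference in the inputs (horizontal axis, log2) against that in the pull-downs (vertical axis, log2) for the 6 chosen genes and 15 other immunoglobulin genes, with grey points for genes under the filter and a dashed line of equal differences. All points but that of Igkv8-19 (0.43 and 0.46) lie below the line; Igkv9-120 is farthest out at 4.87 and 4.36, and Ighg3 lies far below the line at 2.76 and 0.57.

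Apart from Slamf7, measured genes that mark the secreting cell itself showed no gap between targets as wide as that of Ighm. The plasma cell list held 22 genes other than Jchain, of which 20 were measured and 10 tested. Between the targets 1 of the 10 passed in each fraction: Slamf7, a surface receptor of lymphoid cells, was at -1.36 in the inputs and -0.96 in the pull-downs, VTA minus NAC (limma adjusted p = 1e-04 and 0.0015). Slamf7 passed the filter through NAC arrays alone, so it could be tested only by being bright with NAC. The median over the 20 measured genes was -0.13 in the inputs and -0.10 in the pull-downs, against 0.03 and -0.02 over all named genes. Xbp1, the transcription factor of the secretory programme that most cells also use, was at 0.08 and -0.16 and did not pass. The more specific markers were under the filter and so untested: Mzb1, an endoplasmic reticulum cofactor of antibody assembly, had group means of 5.04 to 5.28, the survival receptor gene Tnfrsf17 3.72 to 4.19, the surface proteoglycan gene Sdc1 4.96 to 5.17, and the plasma cell transcription factor gene Prdm1 5.4995 to 5.92. Of this list only Slamf7 differed between the targets past the threshold, so the name plasma cell is borne in these data by antibody and J chain transcripts. The mean over the 20 measured genes was 6.38 to 6.48 in the NAC inputs and 6.19 to 6.32 in the VTA inputs.

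Of 23 B cell genes, 19 were measured and 4 tested. Cd37, a tetraspanin of lymphoid and myeloid cells, fell with VTA in the inputs at -0.77 (limma adjusted p = 0.034), a call lost without the first NAC input, the first VTA input or the second VTA input (adjusted p from 0.267 to 0.285). Blnk, an adaptor of B cell receptor signalling that myeloid cells also use, was called in the pull-downs alone, at -1.10 (limma adjusted p = 1e-04), and had -0.28 in the inputs. Ms4a1, Cd79a and Cd79b, which code for CD20 and for the signalling chains of the B cell receptor, were under the filter, with group means of 3.26 to 3.78, 4.56 to 5.22 and 5.18 to 5.56. In the averaged pull-down comparison 3 plasma and B cell genes rose (Derl3, Sec11c and Blnk) and 3 fell (Xbp1, Edem2 and Cd37), out of 14 tested, where 9.60% of all tested genes rose and 32.0% fell. That count of 6 was 2 without the first NAC input and 3 without the first VTA input.

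Genes of several other immune cell types were also lower with VTA, and their part in the antibody result was not tested. For every list, the shares over all tested genes were 1.38% lower and 0.120% higher with VTA in the inputs. In the pull-downs they were 2.05% lower and 0.418% higher. Of 10 tested genes of antibody receptors and antibody-binding complement, 7 fell with VTA in the inputs and 6 in the pull-downs, and 1 of the 7, Fcgr4, had passed the filter through NAC arrays alone. Fcer1g, the signalling chain of Fc receptors, had -1.29 and -0.73, C1qa, a chain of the complement protein that binds antibody complexes, had -0.91 and -0.83, and Fcgr1, a high-affinity IgG receptor gene, had -0.80 and -0.81. Fcgrt, which codes for the neonatal Fc receptor that recycles IgG, had -0.28 and -0.19 and did not pass in either. Pigr, the transporter of J-chain-bearing polymers across epithelia, was under the filter, with means of 4.84 to 5.03.

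Of 9 tested T and NK cell genes, 6 fell in the inputs and 4 in the pull-downs, with the T cell receptor chain gene Cd3e at -1.81 and -1.03. Of these, 4 in the inputs and 4 in the pull-downs (Cd3e, Cd3g, Cd4 and Cd8b1) passed the filter through NAC arrays alone, so being bright with NAC was a condition of their test. Over all 20 measured genes of the list the median was -0.59 and -0.22. Of 6 tested MHC class II genes 5 fell in each fraction, with H2-Ab1 at -3.25 and -3.18, and 1 of the 5, H2-Oa, had passed the filter through NAC arrays alone. H2-Aa exceeded the array median on 5 arrays, of which only the first VTA input came from VTA tissue. The test of H2-Aa therefore also depended on being bright with NAC. The mean over all 20 measured T and NK genes was 5.60 to 5.68 in the NAC inputs and 4.95 to 4.9991 in the VTA inputs, and that over 9 MHC class II genes 7.06 to 7.10 and 5.77 to 5.84. Of microglia and border macrophage genes, 2 of 6 tested were lower in the inputs and 1 in the pull-downs, among them Ly86 at -0.84 and -0.86. Meningeal and choroid plexus genes were split in the inputs, with 1 of 8 higher (Aldh1a2, 0.56) and 1 lower (Col1a1, -0.71), and none was called in the pull-downs. Of 11 neutrophil and monocyte genes, 1 was tested, Ly6c2, which was at -1.13 in the inputs and had passed the filter through NAC arrays alone. Of 8 red blood cell genes only Slc4a1 was measured, under the filter, so the part of blood left in the tissue was not tested.

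**Figure D4:**
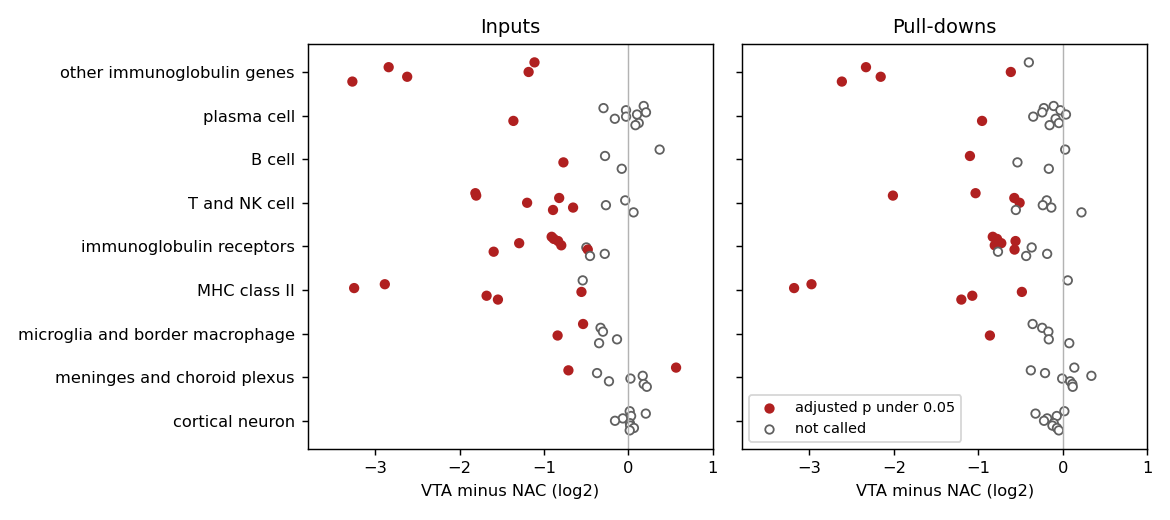
VTA minus NAC difference (log2) of the tested genes of 9 gene lists in the inputs (left) and pull-downs (right), with 1 point per gene, filled red where the limma adjusted p was under 0.05 and open otherwise. Immunoglobulin and MHC class II genes reach -3.27 and -3.25 in the inputs, whereas the plasma cell list has 1 called gene, Slamf7, and the cortical neuron list none.

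The genes whose pattern over the 8 arrays was most like that of the chosen genes were sought among all tested genes. The measure was the root mean square distance between a gene's values less their own mean and the average of the 6 genes treated likewise. That average is mostly the gap between targets that chose the 6 genes. Genes with a gap of like size therefore come nearest by construction. The nearest 8 were Igkj1 at a distance of 0.22, Igkv4-72 at 0.25, Iigp1 at 0.26, Gbp10 at 0.27, Igkv5-43 at 0.28, Cxcl13 at 0.29, Igtp at 0.30 and Cxcl9 at 0.31. Of the chosen genes, Jchain lay nearest to their average (0.20), and Igkv9-120 and Ighm farthest (1.03 and 1.01), the first with a wider and the second with a narrower gap. Igkv6-14, Igkv8-30 and Ighg3 lay at 0.35, 0.41 and 0.62, farther than all of the nearest 8. The nearest set thus held 3 kappa segments, the interferon-induced GTPase genes Iigp1, Gbp10 and Igtp, the B cell attractant gene Cxcl13 and the T cell attractant gene Cxcl9. Cxcl13 read 8.25 and 7.96 in the NAC inputs against 5.34 and 5.46 in the VTA inputs, and its pull-downs read 8.03 and 7.93 against 5.59 and 5.67. It differed between targets by 2.71 and 2.35, NAC above VTA, and its NAC pull-down minus input value was -0.13, nearer to 0 than that of any of the 6 genes.

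**Figure D5:**
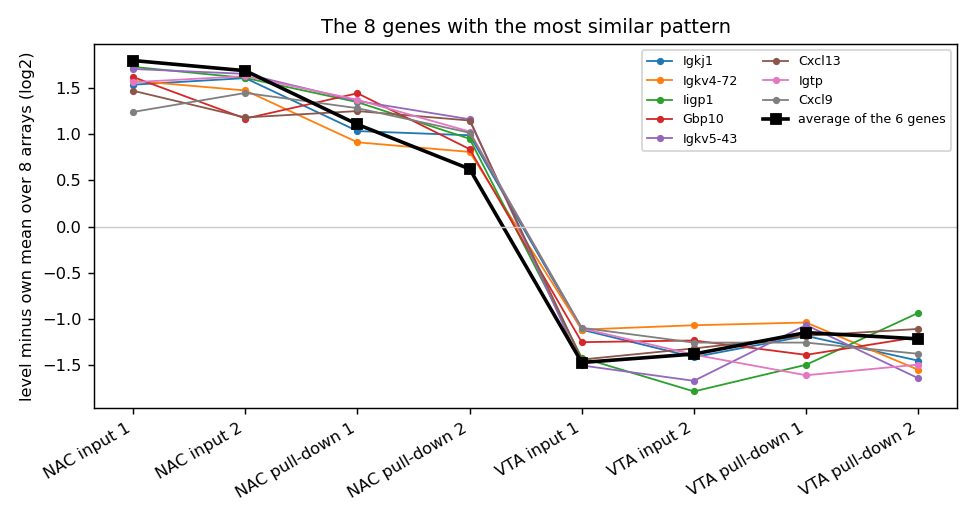
Level of each of the 8 nearest genes minus its own mean over the 8 arrays (log2, vertical axis), with the average of the 6 chosen genes in black; lines join the points of a gene only to guide the eye. All patterns are positive on the 4 NAC arrays and negative on the 4 VTA arrays, and the black line drops from 1.80 and 1.69 in the NAC inputs to 1.11 and 0.62 in the NAC pull-downs.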

How the data were processed

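RNA of 8 samples in 4 groups of 2 was measured on Affymetrix arrays as biotinylated cRNA. The authors deposited log2 values for 41345 probe sets on each array. Per the submitters' processing notes these came from Transcriptome Analysis Console; neither its version nor its normalization settings are given in the sources used. If pull-down RNA differs in amount or makeup, a shared scale can shift pull-down minus input values. No further scaling was applied. Precision is limited by the number of arrays. Correlations between arrays were 0.981 to 0.991 within groups and 0.973 to 0.988 between groups, over all probe sets.

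Gene symbols came from the platform annotation: 23521 probe sets had 1 symbol, 1814 several and 16010 none. Of the 23521, 23328 had the same symbol under their Entrez identifier in RefSeq (GRCm38.p6), and 193 were not in it. Genes were tested if at least 2 of 8 arrays exceeded the array median over named genes, which left 11712 genes. limma 3.58.1 in R 4.3.3 (lmFit, eBayes) fitted a mean per group to all 8 arrays, with two-sided tests, Benjamini-Hochberg adjustment over the 11712 genes and a threshold of 0.05. The fit was tested on simulated data. Errors are SE of the model or SD of 2 arrays.

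The genes, lists and tests were chosen with earlier results of these data known. Named were the 6 genes, the 10 tested other immunoglobulin genes (here 5) with the largest target difference, the first 5 genes of each list with up to 4 of smallest adjusted p, the 8 nearest patterns and Rpl10a. Alternatives covered scaling, filter, probe sets, variance model, left-out arrays and pairing.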

Additional observations from a re-analysis of the deposited data

Results flagged for a closer look

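For 4 of the 6 genes both NAC pull-downs lay below both NAC inputs while both VTA pull-downs lay above both VTA inputs. How many of all tested genes share this pattern was not counted, so nothing is read from 4 of 6. The pull-down minus input difference, VTA less NAC, was 2.19 for Ighg3, 2.01 for Igkv8-30, 1.34 for Igkv6-14 and 0.62 for Jchain (log2). This difference was not tested, because it is built from the differences between targets that chose the genes, and all VTA levels of these 4 genes lay under the array medians.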

How the results depend on the processing

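With VTA minus NAC taken as the median over the 6 genes, the inputs had -3.31, which became -2.85 under the stricter filter (3 genes left) and -3.76 with the mean of all probe sets (5 genes left), and ran from -3.46 to -3.26 when 1 array was left out. The pull-downs had -2.15, with -2.43 to -1.67 when 1 array was left out. No difference between targets of any of the 6 genes changed sign under any alternative in which it had a value; that of Ighm alone moved beyond its spread, with the mean over probe sets. Averaged over targets, 2 of the 6 genes were called, 1 with no filter and 1 to 4 when 1 array was left out; Igkv6-14, at -0.33, ran from -0.69 without NAC pull-down 1 to 0.028 without NAC pull-down 2. The cause was not tested.

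Of the other immunoglobulin genes, 8 in place of 5 were called between inputs with no filter, since more genes were tested, and 5 when any array was left out; between pull-downs 4 were called, and 3 to 4 when an array was left out. The averaged comparison called 2, and 1 to 2 when an array was left out. Of plasma and B cell genes, 2 were called between inputs and 2 between pull-downs; the stricter filter, which tests fewer genes, gave 1 and 1. Leaving out an array gave 1 to 2 between inputs, 2 to 3 between pull-downs and 2 to 7 in place of 6 in the averaged comparison. Over all genes, 289 were called between pull-downs, against 550 with a trended robust variance, 119 with the 4 pull-downs alone, 113 with no filter and 151 without NAC pull-down 1. Between inputs 176 were called, and 100 to 120 without any 1 of the inputs. The averaged comparison called 4866, against 3160 without NAC input 1 and 3068 without VTA input 1.

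The replicate numbers in the labels were tried as a replicate block. Deviations of same-numbered arrays correlated at 0.299 between NAC pull-down and input and at -0.0218 between VTA pull-down and input, so the numbers were not taken as pairs. With the number as a block over all groups, 2 of the 6 genes were called in the averaged comparison, 5 other immunoglobulin genes between inputs and 4 between pull-downs, as without it; the medians stayed at -3.31 and -2.15, and the averaged comparison called 4882 genes in all against 4866. With the number within target as the block, 3 of the 6 genes passed, and 5088 genes in all. The added gene was Igkv8-30 (limma adjusted p = 0.044), whose test needed a bright NAC input. Between the pull-downs the numbers correlated at -0.134; a crossed pairing, chosen after seeing the data, called 4 other immunoglobulin genes and 171 genes in all.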
